A study of Mus musculus with 17 samples.

Results

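Carbon tetrachloride (CCl4), a solvent toxic to the liver, is harmless until liver enzymes reduce it, and the messenger RNAs of 5 genes of that reaction were measured here in sorted hepatocytes: Cyp2e1, Por, Cyb5a, Cyb5b and Cyb5r3. The genes were chosen by name for their roles, and all 5 were found among the 23461 genes of the count table. The hepatocytes were sorted by FACS, and their donors were male mice, 2 to 3 months old. The 17 libraries fall into 4 groups, namely Yap/Taz KO given CCl4 (KO CCl4, n = 3), Yap/Taz KO left untreated (KO untreated, n = 4), wild type given CCl4 (WT CCl4, n = 5) and wild type left untreated (WT untreated, n = 5). Yap and Taz (gene Wwtr1) are coactivators of transcription restrained by the Hippo kinases. Per the labels, CCl4 was dosed at 1 ug/g, 7 times at intervals of 3 days, and cells were collected 3 days after the final dose. How the knockout was made, in which cells it acts and any vehicle for untreated mice: none of this is given in the sources used here. The labels do not state that each library came from its own animal, so p-values measure the spread between these libraries.

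Cyp2e1 is the cytochrome P450 of the endoplasmic reticulum that also oxidises ethanol and paracetamol, and it is the main enzyme that turns CCl4 into the trichloromethyl radical, which attacks membrane lipids. A P450 works only when electrons reach its haem. Por, the NADPH-cytochrome P450 reductase, passes them to every microsomal P450, while cytochrome b5 (Cyb5a) can pass the second electron to some P450s, and Cyb5r3 recharges cytochrome b5 from NADH. Cyb5b is the form of cytochrome b5 on the outer mitochondrial membrane. In the liver lobule Cyp2e1 is made by hepatocytes around the central vein (pericentral), where CCl4 injury is concentrated, and hepatocytes near the portal vein (periportal) make little of it.

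The start-site windows of the P450, its reductase and the mitochondrial cytochrome b5 are printed to show how differently these genes begin. Each window holds 250 bases before and 50 bases after the start in RefSeq, build GRCm38.p6, and windows were found for 3 of the 5 genes. Capitals mark the motifs found on either strand, namely the TATA box with the letters TATAAA, the CCAAT box, which reads ATTGG on the other strand, and the GC box with the letters GGGCGG, which reads CCGCCC on the other strand. No marked motif overlapped with another. A match describes letters, not a site in use.
Cyp2e1, chr7:140763569-140763868, plus strand: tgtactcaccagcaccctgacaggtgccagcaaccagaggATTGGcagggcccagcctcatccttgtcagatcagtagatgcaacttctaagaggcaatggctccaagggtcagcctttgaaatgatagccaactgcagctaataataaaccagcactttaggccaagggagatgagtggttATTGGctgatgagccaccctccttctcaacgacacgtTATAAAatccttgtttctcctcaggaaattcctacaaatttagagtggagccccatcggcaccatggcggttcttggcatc
Por, chr5:135688895-135689194, plus strand: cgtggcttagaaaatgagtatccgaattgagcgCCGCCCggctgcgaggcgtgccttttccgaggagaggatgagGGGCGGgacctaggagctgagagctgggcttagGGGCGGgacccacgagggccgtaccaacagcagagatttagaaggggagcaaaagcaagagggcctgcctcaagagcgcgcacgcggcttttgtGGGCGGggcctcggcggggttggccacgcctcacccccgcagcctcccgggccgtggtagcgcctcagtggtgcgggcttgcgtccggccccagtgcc
Cyb5b, chr8:107150411-107150710, plus strand: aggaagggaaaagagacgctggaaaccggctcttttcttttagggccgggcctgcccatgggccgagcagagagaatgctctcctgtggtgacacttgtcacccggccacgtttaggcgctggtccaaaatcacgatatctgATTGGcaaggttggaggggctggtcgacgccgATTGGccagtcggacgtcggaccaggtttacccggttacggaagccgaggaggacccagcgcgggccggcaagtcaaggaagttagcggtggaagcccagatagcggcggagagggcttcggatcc
The Cyp2e1 window held 1 TATA box 31 bases before the start and 2 CCAAT boxes, with 49.7% G and C. The Por window held 4 GC boxes and no TATA box, with 67.3% G and C. The Cyb5b window held 2 CCAAT boxes and neither other motif, with 60.7% G and C. All 3 RefSeq starts lay inside the spans that GENCODE gives the genes, and that of Por lay furthest inside. Of all 32851 windows, 13.6% held TATAAA, 37.4% held CCAAT and 35.7% held GGGCGG, and the median content of G and C was 52.7%. The letters CATTCC, bound by the TEAD partners of Yap and Taz, stood in 14.7% of all windows and in none of these 3.

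Total counts ran from 11266420 to 24775863 per library. Yap1 was at 0.536 to 8.04 CPM in the 7 KO libraries, against 37.4 to 73.5 CPM in the 10 WT libraries, and Wwtr1 at 1.20 to 7.06 CPM in KO, against 9.86 to 23.4 CPM in WT, where CPM is the count divided by the library size after TMM scaling and put on the usual CPM scale. All 10 hepatocyte markers were detected in every library, and their summed level was 83781 to 183698 CPM of unscaled totals. The 3 libraries that stood apart were these. Mitochondrially encoded genes took 34.3% of counts in KO CCl4 replicate 3 and 30.7% in WT untreated replicate 5, against 1.98 to 20.1% in the other 15. KO untreated replicate 2 had the lowest level of the 17 for 12 of the 15 pericentral genes tested. Many results that could rest on these libraries are given with and without them, and the others with all 17 libraries only.

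Cyp2e1 (ENSMUSG00000025479, chromosome 7, 140763739 to 140774987, plus strand, mm10) was the member that differed most between groups. Its level was 627, 424 and 444 CPM in KO CCl4 replicates 1 to 3. In KO untreated replicates 1 to 4 it was 1113, 127, 2432 and 2198 CPM. In WT CCl4 replicates 1 to 5 it was 1023, 2323, 2772, 1985 and 2019 CPM, and in WT untreated replicates 1 to 5 it was 2527, 1529.7, 2489, 3061 and 2699 CPM. All 3 KO CCl4 libraries thus lay below all 10 WT libraries and below every KO untreated library except replicate 2, the lowest of the 17. The group means, from low to high, were 498 ± 112 CPM in KO CCl4, 1467 ± 1063 in KO untreated, 2024 ± 643 in WT CCl4 and 2461 ± 568 in WT untreated (SD, n = 3, 4, 5 and 5). In that order each mean differed from the next by less than the larger of the 2 SDs. KO untreated varied most, 19.2-fold between its highest and lowest library, against 1.48-fold in KO CCl4, 2.71-fold in WT CCl4 and 2.001-fold in WT untreated.

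**Figure D1:**
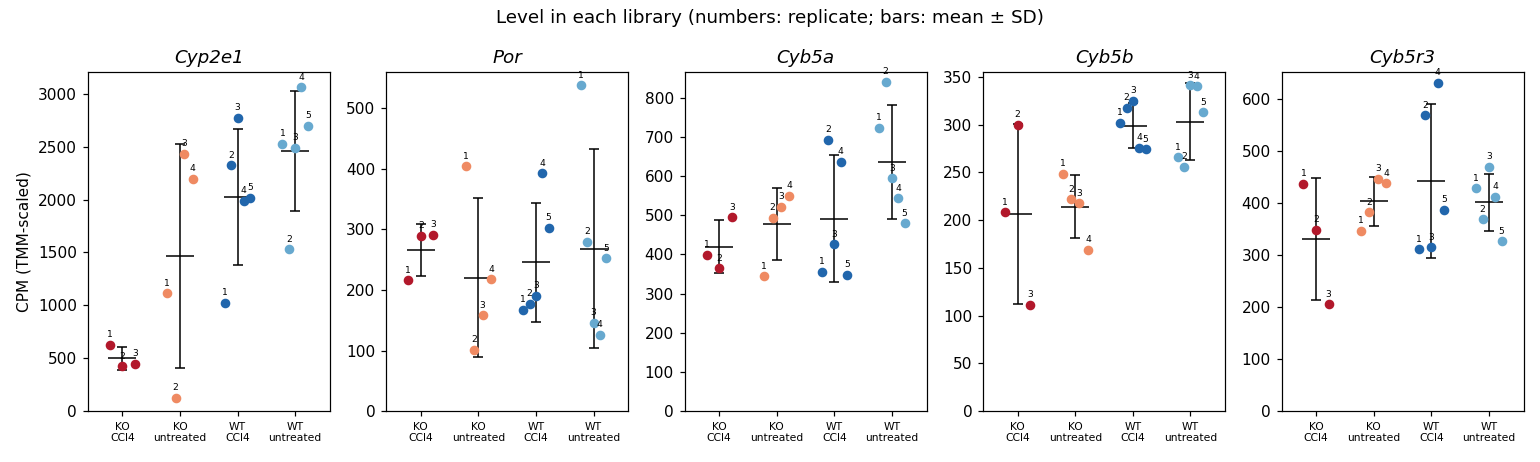
Level of each of the 5 genes in every library, in CPM on linear axes from 0. Points are libraries with their replicate number, horizontal bars are group means and error bars are SDs (n = 3, 4, 5 and 5). The 3 KO CCl4 libraries have 424 to 627 CPM of Cyp2e1, below all 5 WT CCl4 libraries, whereas Por overlaps between all groups.

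After CCl4, Cyp2e1 was lower in KO than in WT hepatocytes, with a log2 fold change of -2.02 ± 0.61 (SE, 95% interval -3.31 to -0.73), a level 0.246 times that of WT CCl4 (edgeR quasi-likelihood test, adjusted p = 0.0417). It was the only call among the 5 members in any comparison. In this comparison 11.8% of the 13721 genes tested were called, 7.62% higher and 4.21% lower in KO. The call was close to its threshold. Leaving out 1 library at a time kept it in 8 of 17 fits, with log2 fold changes of -2.23 to -1.88 and edgeR adjusted p of 0.00206 to 0.185. It was lost without any of the 3 KO CCl4 libraries (edgeR adjusted p = 0.0553, 0.117 and 0.185 without replicates 1, 2 and 3), without WT CCl4 replicate 2, 3, 4 or 5 (0.0761, 0.0800, 0.0628 and 0.0637) and without WT untreated replicate 1 or 3 (0.0510 and 0.0511). DESeq2 gave an adjusted p of 0.00314 and limma voom 0.0643. Without both libraries over 30% mitochondrial the difference was -1.94 (edgeR adjusted p = 0.184), and without these and KO untreated replicate 2 it was -1.99 (edgeR adjusted p = 0.0188).

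Summed markers of other liver cells were set beside this difference. The macrophage, endothelial and bile duct cell sums overlapped between KO CCl4 and WT CCl4, and the stellate cell sum was higher in KO CCl4 without overlap. The 10 macrophage markers summed to 96.2 to 3438 CPM of unscaled totals in KO CCl4, against 12.4 to 121 CPM in WT CCl4, and none was at 0 in either group. All 10 were called higher in KO CCl4 than in WT CCl4, and 0 of 10 without KO CCl4 replicate 3, which held the highest sum. Over all genes, calls in either direction fell too, from 1622 of 13721 tested to 418 of 14239 without that replicate. Endothelial markers summed to 113 to 556 CPM in KO CCl4, against 35.2 to 167 CPM in WT CCl4, with 3 of 10 called higher, and 0 of 10 without that replicate. Stellate cell markers summed to 90.6 to 167 CPM in KO CCl4, against 18.8 to 77.8 CPM in WT CCl4, with 0 of 8 tested called. Bile duct cell (cholangiocyte) markers summed to 54.3 to 72.5 CPM in KO CCl4, against 43.2 to 70.4 CPM in WT CCl4, with 1 of 2 tested called higher. Hepatocyte markers summed to 112422 to 183698 CPM in KO CCl4, against 138337 to 159445 CPM in WT CCl4, with 1 of 10 called higher and none lower. Of all genes, 7.62% were called higher and 4.21% lower. In bulk samples, fewer cells of a type and less RNA per cell cannot be told apart. The part of other cells in the Cyp2e1 difference was not tested.

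The CCl4 effect on Cyp2e1 within KO was -1.56 ± 0.61 on the log2 scale (95% interval -2.85 to -0.26), which did not pass (edgeR adjusted p = 0.0917), in a comparison where 19.0% of genes were called, 12.1% higher and 6.96% lower after CCl4. The call depended on 1 library and on the tool. Without KO untreated replicate 2, the KO untreated mean became 1914 ± 704 CPM (SD, n = 3), the effect was -1.94 and it passed (edgeR adjusted p = 0.00325). With the 2 libraries over 30% mitochondrial left out as well it was -1.90 (edgeR adjusted p = 0.0150), and DESeq2 on all libraries gave -1.52 (adjusted p = 0.0348). Summed macrophage, endothelial and stellate markers were higher in KO CCl4 than in KO untreated, without overlap. The macrophage sum was 96.2 to 3438 CPM in KO CCl4, against 0.294 to 8.30 CPM in KO untreated, with up to 7 markers at 0 in a KO untreated library, and 10 of 10 were called higher. The endothelial sum was 113 to 556 CPM in KO CCl4, against 16.8 to 28.6 CPM in KO untreated (9 of 10 higher), and the stellate sum 90.6 to 167 CPM, against 6.31 to 8.96 CPM (7 of 8 higher). Without KO CCl4 replicate 3, 9 of 10 macrophage, 6 of 10 endothelial and 6 of 8 stellate markers were called higher. Over all genes, 1666 of 14239 were then called in either direction, against 2610 of 13721 with all libraries. Within WT the CCl4 effect on Cyp2e1 was -0.28 ± 0.49 (95% interval -1.31 to 0.74, edgeR adjusted p = 0.842), in a comparison where 0.853% of genes were called, 0.576% higher and 0.277% lower after CCl4. Untreated KO against untreated WT gave -0.75 ± 0.52 (95% interval -1.85 to 0.36, edgeR adjusted p = 0.783), where 0.933% of genes were called, 0.583% higher and 0.350% lower in KO. The CCl4 effect in KO minus that in WT was -1.27 ± 0.77 (95% interval -2.90 to 0.35, edgeR adjusted p = 0.427), where 1.09% of genes were called, 0.794% with a higher and 0.299% with a lower effect in KO. The effect of CCl4 on Cyp2e1 was therefore not shown to differ between the genotypes.

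**Figure D2:**
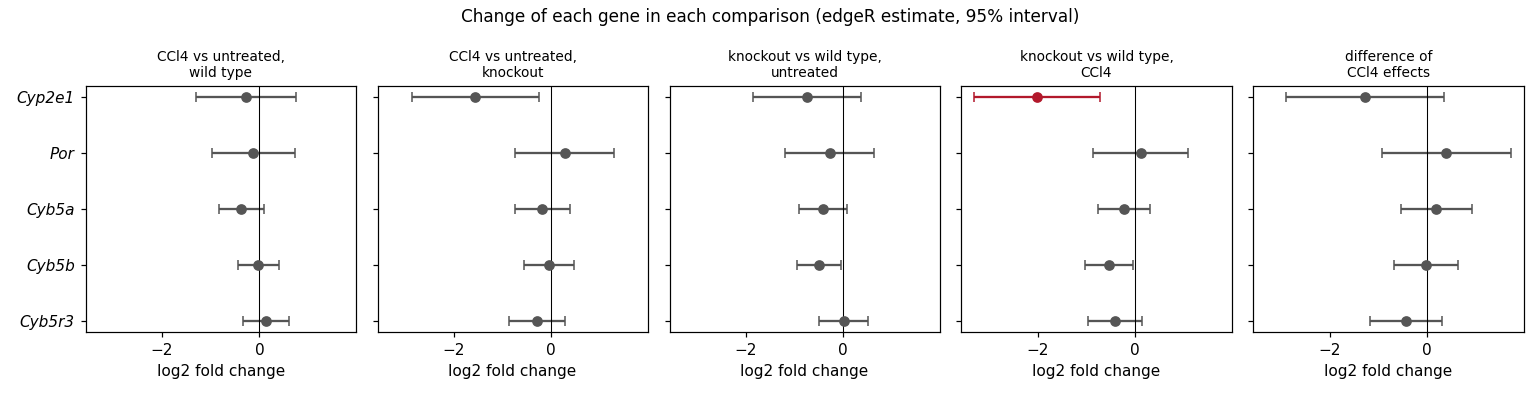
Log2 fold change of each gene in the 5 comparisons, with 95% intervals from the edgeR fit of all 17 libraries. The Cyp2e1 estimate for KO against WT after CCl4, -2.02, is drawn in red as the only one past an adjusted p of 0.05.

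The library with the least Cyp2e1, KO untreated replicate 2, was low in other pericentral genes too. Cyp2c29, a P450 of the pericentral zone, was at 14.1 CPM in that library, against 208, 321 and 263 CPM in KO untreated replicates 1, 3 and 4. Oat, ornithine aminotransferase of the cells next to the central vein, was at 2.48 CPM there, against 217, 106 and 77.4 CPM in the same 3 libraries. Rgn, a calcium-binding gluconolactonase of the vitamin C pathway, was at 52.8 CPM, against 208, 369 and 320.4 CPM. In all, 13 of 15 pericentral genes were lowest in that library within its group, and 7 of 12 periportal genes were highest. Cyp2f2, the P450 used as a periportal marker, was at 3059.9 CPM there, against 1431, 1929 and 2110.3 CPM in replicates 1, 3 and 4. Libraries of both WT groups showed some of the same. WT CCl4 replicate 1 and WT untreated replicate 2 each had the lowest Cyp2e1 of their group and the lowest level within it for 11 of 15 pericentral genes. In KO CCl4 the lowest Cyp2e1 was in replicate 2, which was lowest for 2 of the 15 and highest for 8. Over the 15 pericentral genes, the median log2 fold change of KO CCl4 against WT CCl4 was -0.46 beside 0.04 over all genes. None was called higher and 3 lower, beside 7.62% and 4.21% of all genes (4 lower without KO untreated replicate 2, and 1 without KO CCl4 replicate 3). Over all genes, 418 of 14239 were called in either direction without KO CCl4 replicate 3. The summed level of the 15 genes after TMM scaling was 1695 to 2256 CPM in KO CCl4, against 2571 to 4002 CPM in WT CCl4, with no overlap. By unscaled totals it was 1461 to 2932 CPM in KO CCl4, against 2928 to 4619 CPM in WT CCl4, with an overlap of 1 library from each group. Against KO untreated, the median was 0.77 beside 0.01, and 4 of the 15 rose and 1 fell in KO CCl4, but 3 rose and 3 fell without KO untreated replicate 2. Of all genes, 12.1% were called higher and 6.96% lower in KO CCl4 than in KO untreated.

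**Figure D3:**
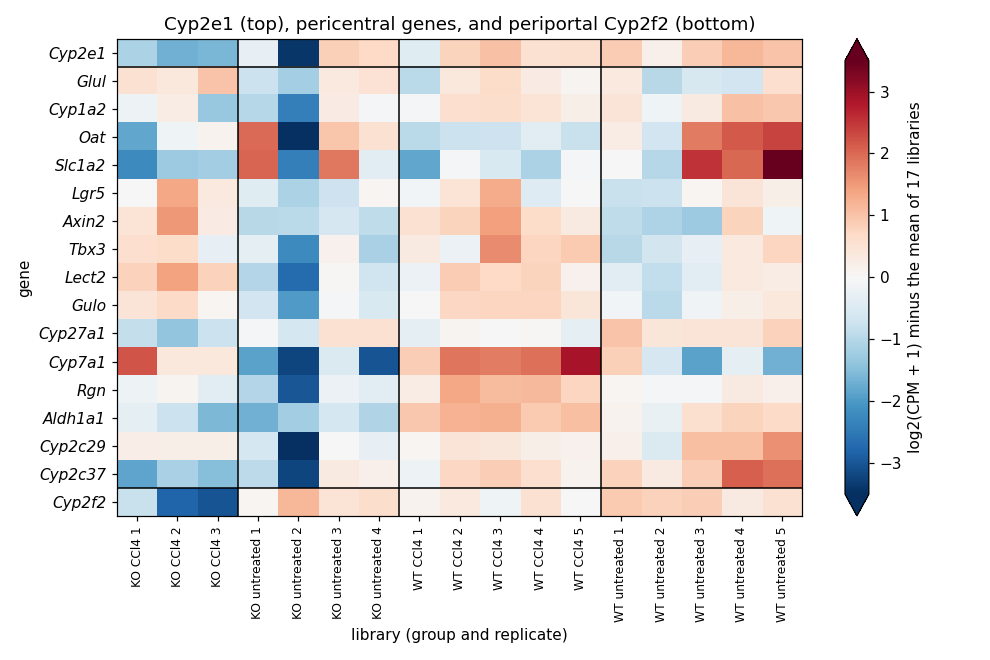
Cyp2e1 (top row), 15 pericentral genes and periportal Cyp2f2 (bottom row) in the 17 libraries, as log2(CPM + 1) minus the mean of all libraries. Red is above and blue below that mean, and values past either end of the scale take its end colour. KO untreated replicate 2 is blue for Cyp2e1 and most pericentral genes and red for Cyp2f2, while the 3 KO CCl4 libraries are blue for Cyp2e1 and for Cyp2f2.

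Cyp2e1 made up a smaller share of P450 messages in KO CCl4 than in WT CCl4. Per length, as TPM, which divides counts by transcript length and then scales all libraries alike, Cyp2e1 took 8.42, 7.10 and 8.42% of the summed level of 50 P450 genes of families 1 to 3 in KO CCl4 replicates 1 to 3. In KO untreated replicates 1 to 4 it took 11.3, 1.30, 19.2 and 17.5%. In WT CCl4 replicates 1 to 5 the share was 10.3, 15.8, 22.6, 15.6 and 18.4%, and in WT untreated it was 17.2, 11.3, 16.96, 20.6 and 18.2%. No KO CCl4 library overlapped with either WT group. Cyp2e1 ranked 3 or 4 of the 50 in KO CCl4, 1 to 12 in KO untreated, 1 to 3 in WT CCl4 and 1 to 3 in WT untreated. The P450 with the highest level in all 3 KO CCl4 libraries was Cyp3a11, a broad drug-metabolising P450, with 24.8 to 29.3% of the sum. Cyp3a11 was also highest in WT CCl4 replicates 1, 2, 4 and 5 and in KO untreated replicate 1. Its share in WT CCl4 was 16.1 to 25.9%, which overlaps with KO CCl4. The sum itself was 3281 to 8569 TPM in KO CCl4, 6875 to 10904 in KO untreated, 10963 to 17413 in WT CCl4 and 7311 to 13166 in WT untreated, the lowest being KO CCl4 replicate 3.

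**Figure D4:**
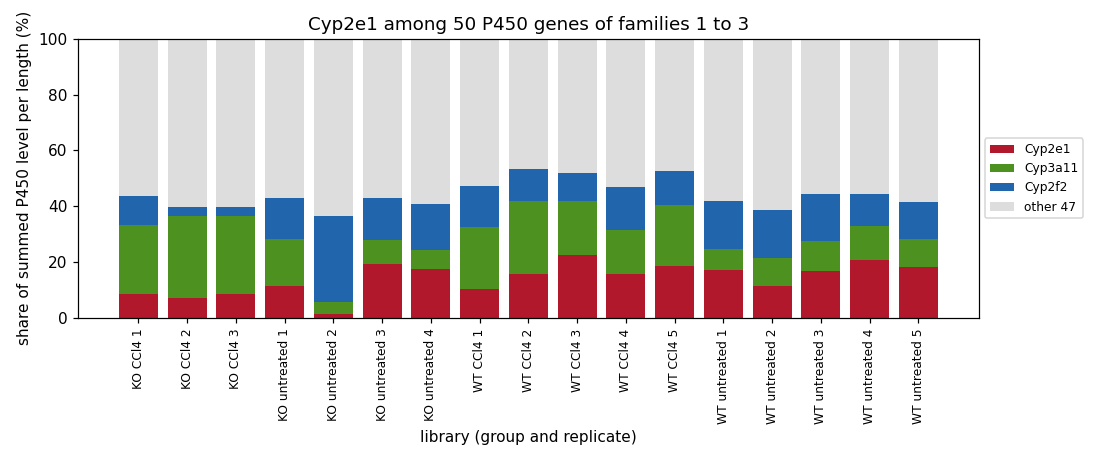
Share of the summed level per length (TPM) of 50 P450 genes taken by Cyp2e1, Cyp3a11, Cyp2f2 and the other 47, in each library. Cyp2e1 takes 7.10 to 8.42% in KO CCl4 and 10.3 to 22.6% in WT CCl4, and in KO untreated replicate 2 Cyp2f2 takes 30.9%.

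Por (ENSMUSG00000005514, chromosome 5, 135670033 to 135735326, plus strand, mm10), the reductase, overlapped between all groups. Its level was 216, 289.7 and 291 CPM in KO CCl4 and 404, 101, 158 and 218 CPM in KO untreated. It was 168, 177, 191, 393 and 302 CPM in WT CCl4 and 538, 279.5, 146, 126 and 252 CPM in WT untreated. The spread lay within the groups, 3.99-fold in KO untreated and 4.28-fold in WT untreated. The group means were 220.3 ± 131 CPM in KO untreated, 246 ± 98.3 in WT CCl4, 266 ± 42.9 in KO CCl4 and 268 ± 165 in WT untreated, and no neighbours in that order differed by more than their SDs. None of the 5 comparisons passed, and the estimate nearest to 0 was KO against WT after CCl4, 0.11 ± 0.46 on the log2 scale (95% interval -0.86 to 1.09, edgeR adjusted p = 0.914). These intervals are wide: the CCl4 effect in KO was 0.27 ± 0.48 (95% interval -0.75 to 1.29). Por overlaps a pseudogene on the opposite strand, Gm16061, which held 0 to 11 counts per library.

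Cyb5a (ENSMUSG00000024646), cytochrome b5 of the endoplasmic reticulum, was at 399, 365 and 494 CPM in KO CCl4 and at 343, 493, 521 and 549 CPM in KO untreated. It was at 356, 692, 426, 636 and 347 CPM in WT CCl4 and at 722, 840.1, 594, 543 and 479 CPM in WT untreated. All groups overlapped, although 4 of 5 WT untreated libraries lay above every KO CCl4 library. The means were 419 ± 67.2 CPM in KO CCl4, 477 ± 91.7 in KO untreated, 491 ± 162 in WT CCl4 and 636 ± 145 in WT untreated, each within the larger SD of its neighbour. No comparison passed, and the most negative estimate was untreated KO against untreated WT, -0.42 ± 0.23 on the log2 scale (95% interval -0.91 to 0.08, edgeR adjusted p = 0.685). An antisense gene inside Cyb5a, Gm16146, held 0 to 3 counts per library.

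Cyb5b (ENSMUSG00000031924, chromosome 8, 107150640 to 107187471, plus strand, mm10), the mitochondrial cytochrome b5, was the member with the second clearest difference between genotypes, though it did not pass. It was at 208, 299.8 and 112 CPM in KO CCl4 and at 248, 222, 218 and 169 CPM in KO untreated. It was at 302, 318, 325, 276 and 274 CPM in WT CCl4 and at 266, 256, 341, 340.0 and 313 CPM in WT untreated. All 4 KO untreated libraries lay below all 5 WT untreated ones, while KO CCl4 replicate 2 overlapped with WT CCl4 and replicates 1 and 3 lay below it. The means were 207 ± 94.1 CPM in KO CCl4, 214 ± 33.1 in KO untreated, 299 ± 23.4 in WT CCl4 and 303 ± 40.5 in WT untreated, and only the middle step, between the genotypes, exceeded both SDs of its neighbours. KO against WT was -0.50 ± 0.21 on the log2 scale untreated (95% interval -0.95 to -0.05, unadjusted p = 0.0308, edgeR adjusted p = 0.466). After CCl4 it was -0.53 ± 0.23 (95% interval -1.03 to -0.04, unadjusted p = 0.0363, edgeR adjusted p = 0.158). Of the 13721 genes tested, 1203 had an unadjusted edgeR p under 0.05 between the untreated genotypes, and 3560 after CCl4. A change of larger size was seen in 23.5% of genes untreated and in 37.4% after CCl4, so Cyb5b did not stand out among all genes. Without KO CCl4 replicate 2 the difference after CCl4 was -0.90 and passed (edgeR adjusted p = 0.0220), and over all fits without 1 library its edgeR adjusted p ran from 0.0220 to 0.587. In the TMM-scaled fit, the 95% interval of the CCl4 effect on Cyb5b was -0.56 to 0.46 in KO and -0.44 to 0.40 in WT. The WT estimate depended on the scaling. With library totals alone it was 0.36 (edgeR adjusted p = 0.380). As TPM, not scaled by TMM, Cyb5b was at 134 to 161 in WT CCl4, against 65.8 to 129 in WT untreated.

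Cyb5r3 (ENSMUSG00000018042, chromosome 15, 83153494 to 83172592, minus strand, mm10), the NADH-cytochrome b5 reductase, was at 438, 349 and 205 CPM in KO CCl4 and at 347, 383, 447 and 439 CPM in KO untreated. It was at 311, 569, 315, 632 and 388 CPM in WT CCl4 and at 429, 369, 471, 413 and 327 CPM in WT untreated. All groups overlapped, and the lowest library was KO CCl4 replicate 3, which was also the lowest for Cyb5b and the one with 34.3% mitochondrial counts. The means were 331 ± 117 CPM in KO CCl4, 402 ± 55.4 in WT untreated, 404 ± 47.4 in KO untreated and 443 ± 149 in WT CCl4, with no neighbours apart by more than the larger SD. No comparison passed, and untreated KO against untreated WT gave 0.01 ± 0.24 on the log2 scale (95% interval -0.49 to 0.51, edgeR adjusted p = 0.998).

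Set against each other within a library, where scaling cancels, the electron donors stood higher over Cyp2e1 in KO CCl4 than in WT CCl4. Counts of Por per 100 counts of Cyp2e1 were 34.5, 68.4 and 65.5 in KO CCl4, against 16.4, 7.60, 6.87, 19.8 and 14.97 in WT CCl4. Counts of Cyb5a per 100 of Cyp2e1 were 63.6, 86.1 and 111 in KO CCl4, against 34.8, 29.8, 15.4, 32.0 and 17.2 in WT CCl4. Counts of Cyb5r3 per 100 of Cyp2e1 were 69.8, 82.5 and 46.2 in KO CCl4, against 30.4, 24.5, 11.4, 31.8 and 19.2 in WT CCl4. None of the 3 ratios overlapped between these groups. The mean log2 ratios differed by 2.15 for Por, 1.79 for Cyb5a and 1.55 for Cyb5r3, each with p = 0.0179 in a two-sided exact permutation test, the smallest that 3 against 5 allows. None passed after adjustment over the 16 ratio tests (adjusted p = 0.0952 in the exact permutation tests), and the 3 ratios share Cyp2e1 as denominator. KO untreated spanned both, with 36.3, 79.9, 6.51 and 9.90 counts of Por per 100 of Cyp2e1, the highest in replicate 2. WT untreated had 21.3, 18.3, 5.86, 4.10 and 9.35, and the CCl4 effect on this ratio was 1.37 in KO (exact permutation p = 0.343) and 0.31 in WT (exact permutation p = 0.595). Counts of Cyb5b per 100 of Cyb5a were 22.6 to 82.2 in KO CCl4, 30.7 to 72.2 in KO untreated, 43.4 to 84.9 in WT CCl4 and 30.4 to 65.3 in WT untreated, and overlapped between all groups.

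**Figure D5:**
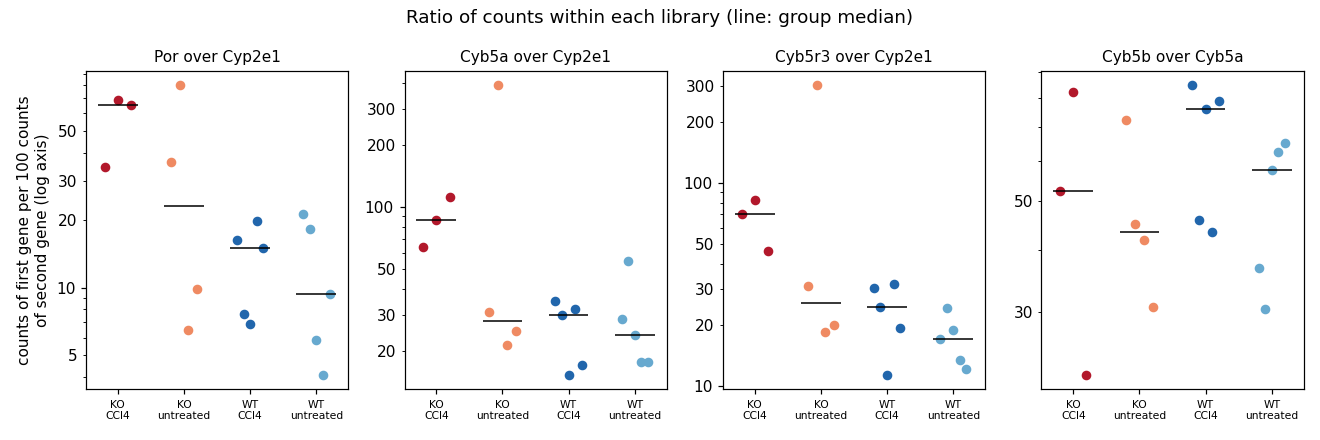
Counts of 1 gene per 100 counts of another within each library, on log axes, for 4 pairs. Points are libraries and lines are group medians. Por, Cyb5a and Cyb5r3 over Cyp2e1 do not overlap between KO CCl4 and WT CCl4, and 1 KO untreated library, replicate 2, lies highest of all 17 in these 3 panels.

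Per length, Cyp2e1 had the highest TPM of the 5 members in 12 of 17 libraries and Cyb5a in the other 5, namely all 3 KO CCl4 libraries, KO untreated replicate 2 and WT untreated replicate 2. In KO CCl4, Cyb5a averaged 826 ± 213 TPM and Cyp2e1 534 ± 229 TPM (SD, n = 3). In KO untreated Cyb5a averaged 789.8 ± 114 TPM and Cyp2e1 1319 ± 899 TPM (n = 4). In WT CCl4 Cyb5a averaged 1086 ± 379.8 TPM and Cyp2e1 2319.9 ± 747 TPM (n = 5), and in WT untreated 886 ± 252 and 1794 ± 654 TPM (n = 5). These TPM values were not scaled by TMM. By TMM-scaled CPM both genes were lower in WT CCl4 than in WT untreated (Cyp2e1 2024 against 2461 CPM, Cyb5a 491 against 636 CPM). Por, Cyb5r3 and Cyb5b were below Cyb5a everywhere, at group means of 128 to 189.6 TPM for Por, 126 to 218 TPM for Cyb5r3 and 80.8 to 145 TPM for Cyb5b, and their order changed between libraries. Por stood at 1.96 to 3.72 TPM per 100 TPM of the 50 P450s in KO CCl4, 0.699 to 2.78 in KO untreated, 0.812 to 2.08 in WT CCl4 and 0.571 to 2.47 in WT untreated, which overlap.

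Of the 5 genes whose level followed Cyp2e1 most closely over the 17 libraries, 4 were other P450s. Among 7303 genes with a mean of at least 10 CPM, Pearson's r of log2(CPM + 1) with Cyp2e1 was 0.93 for Cyp2c37, 0.90 for Cyp2c50, 0.87 for Cyp2a5, 0.85 for Cyp2c54 and 0.85 for Tnfaip8l1. The libraries share the 4 groups, so these values describe likeness across groups and within them. Without KO untreated replicate 2 they were 0.89, 0.84, 0.73, 0.77 and 0.78. Cyp2c37, Cyp2c50 and Cyp2c54 are close copies of each other, as are Cyp2a5 and Cyp2a4, and reads could be split between such copies, so their levels are uncertain. Cyp2c37 averaged 8.35 ± 2.28 CPM in KO CCl4 (n = 3), against 34.6 ± 9.94 CPM in WT CCl4 (n = 5), a log2 fold change of -2.04 ± 0.64 (edgeR adjusted p = 0.0477, and 0.190 without KO CCl4 replicate 3). Cyp2c50 averaged 52.4 ± 7.25 CPM in KO CCl4, against 293 ± 55.5 CPM in WT CCl4, a change of -2.48 ± 0.70 (edgeR adjusted p = 0.0304).

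Por was followed by another set of genes. Of the genes named here, the highest r with Por was 0.77 for Tsku, a secreted proteoglycan of the liver, then 0.75 for Usp2, a deubiquitinase with a daily rhythm, 0.73 for Raph1 and 0.72 for Nrg4, a secreted growth factor. Without KO untreated replicate 2 these were 0.70, 0.76, 0.64 and 0.72. Usp2, like Por, varied mainly within groups, from 1.43 to 20.8 CPM in KO untreated and from 3.17 to 85.9 CPM in WT untreated. The P450 and its reductase did not follow each other: r between Cyp2e1 and Por was 0.17, and -0.24 without KO untreated replicate 2. The r of Cyp2e1 with Cyb5a, Cyb5b and Cyb5r3 was 0.33, 0.45 and 0.37, and the r of Por with these 3 was 0.04, -0.15 and -0.05.

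Other P450s of families 1 to 3 were called lower more often than higher in KO CCl4. Against WT CCl4, 12 of 45 tested fell, 1 rose and 32 did not pass, where 4.21% of all genes were called lower and 7.62% higher. The median log2 fold change was -0.73 beside 0.04 over all genes. The part of the higher sums of macrophage, endothelial, stellate and cholangiocyte markers of KO CCl4 in these and the following list counts was not tested. Without KO CCl4 replicate 3 the count was 7 fallen and 1 risen. Over all genes, 418 of 14239 were then called in either direction, against 1622 of 13721 with all libraries. The following list counts for this comparison without that replicate are to be read beside these numbers. Cyp2c23, an arachidonic acid epoxygenase, averaged 76.4 ± 14.7 CPM in KO CCl4, against 326 ± 32.4 CPM in WT CCl4 (log2 fold change -2.09 ± 0.21, edgeR adjusted p = 2.99e-05). Cyp2j5, another epoxygenase, averaged 173 ± 64.4 CPM in KO CCl4, against 404 ± 56.7 CPM in WT CCl4 (-1.23 ± 0.21, edgeR adjusted p = 0.00193). The riser was Cyp2a4, a steroid hydroxylase, at 66.0 ± 37.3 CPM in KO CCl4, against 4.99 ± 2.27 CPM in WT CCl4 (3.73 ± 0.58, edgeR adjusted p = 0.00103). Against KO untreated, 13 of 45 fell and 4 rose in KO CCl4, with a median of -0.78 beside 0.01. Of all genes, 6.96% were called lower and 12.1% higher there. Without KO CCl4 replicate 3, 12 of the 45 fell and 4 rose. Over all genes, 1666 of 14239 were then called in either direction, against 2610 of 13721 with all libraries. Later list counts against KO untreated without that replicate share these numbers. Within WT, 2 rose and 1 fell after CCl4, Cyp2a4 at 4.99 ± 2.27 CPM against 0.512 ± 0.606 CPM, Cyp3a44 at 2.47 ± 0.908 against 0.296 ± 0.236 CPM, and Cyp2d26 at 569 ± 56.1 against 893 ± 120 CPM (edgeR adjusted p = 0.0199, 0.0326 and 0.0188). Of all genes, 0.576% were called higher and 0.277% lower after CCl4 in WT. Untreated KO against untreated WT gave 0 calls of 45, in a comparison with 0.933% of all genes called.

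In a list of other electron carriers, and of proteins that work with such carriers or with P450s, genes were called only downward. In KO CCl4 against WT CCl4, 4 of 14 tested fell and none rose, a median of -0.34 beside 0.04 over all genes, and 2 fell without KO CCl4 replicate 3. Of all genes, 4.21% were called lower and 7.62% higher. Fdx1, the ferredoxin that serves mitochondrial P450s, averaged 30.9 ± 2.77 CPM in KO CCl4, against 67.8 ± 14.9 CPM in WT CCl4 (-1.13 ± 0.23, edgeR adjusted p = 0.00481). Pgrmc1, a haem protein of the endoplasmic reticulum that binds P450s, averaged 478 ± 85.9 CPM in KO CCl4, against 814 ± 104 CPM in WT CCl4 (-0.77 ± 0.15, edgeR adjusted p = 0.00493). Marc1, which takes electrons from Cyb5b and Cyb5r3 on the outer mitochondrial membrane, averaged 198 ± 57.2 CPM in KO CCl4, against 339 ± 43.0 CPM in WT CCl4 (-0.77 ± 0.17, edgeR adjusted p = 0.00942, and 0.0766 without KO CCl4 replicate 3). Against KO untreated, 4 of 14 also fell in KO CCl4, and 3 without KO CCl4 replicate 3, where 6.96% of all genes were called lower with all libraries. Among the 4 were Marc1 (-1.08 ± 0.18), Fdx1 (-1.18 ± 0.24) and Marc2, a paralogue of Marc1 (-0.66 ± 0.18), with edgeR adjusted p of 0.000896, 0.00249 and 0.0159. No gene of this list was called in WT after CCl4 or between the untreated genotypes, where 0.853% and 0.933% of all genes were called, so that 0 of 14 is near the background.

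Of 12 tested enzymes fed by Por or cytochrome b5, 2 rose in KO CCl4 against WT CCl4 and none fell, and 0 were called without KO CCl4 replicate 3. Of all genes, 7.62% were called higher and 4.21% lower. Hmox1, the haem oxygenase, was at 8.96 to 193 CPM in KO CCl4, against 3.48 to 6.68 CPM in WT CCl4, and the highest Hmox1 was in KO CCl4 replicate 3, the library with the highest macrophage sum. Scd2, a fatty acid desaturase, was at 2.45 to 26.3 CPM in KO CCl4, against 1.64 to 5.79 CPM in WT CCl4. Of the 8 genes of haem synthesis, none was called in KO CCl4 against WT CCl4, where 11.8% of all genes were called. Against KO untreated, where 19.0% of all genes were called, 1 fell. It was Fech (ferrochelatase) (-0.70 ± 0.18, edgeR adjusted p = 0.0134, and 0.0661 without KO CCl4 replicate 3). None of 11 known regulators of Cyp2e1 or Por was called in KO CCl4 against WT CCl4. With 11.8% of all genes called, 0 of 8 and 0 of 11 are near the background. Against KO untreated, 1 fell, Cebpa, a transcription factor of hepatocytes, at 196 ± 50.3 CPM in KO CCl4, against 437 ± 151 CPM in KO untreated (-1.16 ± 0.28, edgeR adjusted p = 0.00874, and 0.0720 without KO untreated replicate 2 and the 2 libraries over 30% mitochondrial). None of 6 genes of the pathway that degrades P450 proteins at the endoplasmic reticulum was called in any of the 5 comparisons. These called 0.853% to 19.0% of all genes, so that 0 of 6 is also near the background.

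Enzymes of ethanol oxidation, a reaction Cyp2e1 shares, were called only lower in KO. Aldh1a1 among them is also in the list of pericentral genes. In KO CCl4 against WT CCl4, 3 of 6 fell, and 2 without KO CCl4 replicate 3. Of all genes, 4.21% were called lower and 7.62% higher. Aldh1a1, an aldehyde dehydrogenase, changed by -1.89 ± 0.30 on the log2 scale, Adh4, an alcohol dehydrogenase, by -1.22 ± 0.23 and Cat (catalase) by -1.02 ± 0.26 (edgeR adjusted p = 0.00127, 0.00298 and 0.0190, and for Cat 0.0776 without that replicate). Adh1, the main alcohol dehydrogenase of the liver, passed between the untreated genotypes, at 654 ± 45.0 CPM in KO untreated, against 1683 ± 245 CPM in WT untreated (-1.36 ± 0.21, edgeR adjusted p = 0.00223). Aldh1a1 was the other of the 2 called there (-1.53 ± 0.27, edgeR adjusted p = 0.00596), in a comparison with 0.933% of all genes called. Of 10 genes that make or use glutathione or remove peroxides, 3 fell in KO CCl4 against WT CCl4, beside 4.21% of all genes. Without KO CCl4 replicate 3, 1 fell. The 3 were Gpx1, a glutathione peroxidase (-1.04 ± 0.18), Mgst1, a glutathione transferase of microsomes (-1.27 ± 0.32) and Prdx6, a peroxiredoxin (-0.77 ± 0.20), with edgeR adjusted p of 0.00225, 0.0159 and 0.0229.

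Some genes of the periportal zone, opposite to that of Cyp2e1, were also lower in KO CCl4. Against WT CCl4, 4 of 12 fell and none rose, and 3 fell without KO CCl4 replicate 3. Of all genes, 4.21% were called lower and 7.62% higher. Cyp2f2 changed by -2.003 ± 0.43, Hal, the histidine lyase, by -1.64 ± 0.29 and Pigr, the receptor for polymeric immunoglobulin, by -1.55 ± 0.20 on the log2 scale (edgeR adjusted p = 0.00705, 0.00241 and 0.000268). Against KO untreated, 8 of 12 fell and none rose, and without KO CCl4 replicate 3 it was 5 fallen and 1 risen. Of all genes, 6.96% were called lower and 12.1% higher in that comparison. In WT after CCl4 none of the 12 was called, in a comparison with 0.853% of all genes called.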

How the data were processed

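The authors deposited a single gene table, which holds unnormalised whole-number counts of all 17 libraries. The submitters' processing notes name STAR 2.4.1d, mm10, FastQC, DESeq2, edgeR and limma. Per the labels, the kits were Qiagen MicroRNEasy for RNA and NEBNext Ultra II for libraries. No counting tool, strand setting or annotation is given in the sources used here, so reads of a gene and of one on its other strand cannot be told apart.

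Identifiers were matched to GENCODE M21 (22929 of 23461). Counts were tested in R 4.3.3 with edgeR 4.0.16, all 17 libraries in 1 fit with 4 group means, after filterByExpr (minimum count 10, minimum total 15), which kept 13721 genes including all 5 members. Libraries were scaled by TMM, and contrasts were tested by the robust quasi-likelihood F test, adjusted by Benjamini-Hochberg over all tested genes and called at an adjusted p under 0.05. An SE is the size of a log2 fold change divided by the square root of its F, and intervals use the t quantile of the fit. TPM was computed from counts and exon unions of the basic annotation. Ratios of counts within a library, with 0.5 added, were compared by two-sided exact permutation tests, adjusted over 16. The script was tested on simulated data.

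The members and lists were chosen with earlier results of these data known. Named genes were the members, Yap1 and Wwtr1, up to 3 called genes per list and comparison with the smallest adjusted p, and the 5 genes most like Cyp2e1 and Por, of which 1 for Por is not reported here. Genes named outside that rule, such as Cyp2c29, Oat, Rgn and Cyp3a11, were chosen after their values were seen. Of 210 list entries, 206 were in the table. Lists share some genes, such as Aldh1a1 (pericentral and ethanol oxidation) and Cyp2f2 (P450 and periportal), so their counts are not independent. The labels do not say that equal replicate numbers mark shared animals or days, and samples were not paired. No pair of libraries from the same group agreed within sampling noise (lowest chi-square per gene 23.4 over 29 pairs). Pairs from different groups were not examined. The alternatives were other scalings, filters, DESeq2 1.42.0, limma 3.58.1 voom, 2-group fits, a replicate block and leaving out libraries. No library was left out of the main results.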

Additional observations from a re-analysis of the deposited data

Results flagged for a closer look

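In KO untreated, the log2 ratio of Cyb5a to Cyp2e1 counts was 1.96 in replicate 2, far from the other 3 libraries of its group (-2.22 to -1.70). Of 27 groups of 4 or 5 libraries examined for a library far from the rest, this was the 1 flagged, and chance flags about 1 in 20 groups.

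The CCl4 effect in KO minus that in WT passed the test of the difference for 4 named genes. It was -1.74 on the log2 scale for Cyp2c23 (edgeR adjusted p = 0.0278), and 0.0604 without the 2 libraries over 30% mitochondrial. It was -1.31 for Cyp2j5 (edgeR adjusted p = 0.0431, and 0.0825 without KO CCl4 replicate 3) and -1.27 for Pigr (edgeR adjusted p = 0.0407, and 0.0825 without KO CCl4 replicate 3). It was 6.63 for Cyp2a4 (edgeR adjusted p = 0.0316, and 0.0691 without KO CCl4 replicate 3), a size that depends on the prior count, because KO untreated held 0 to 0.257 CPM of it, and reads could be split with its close copy Cyp2a5. The difference was called for 150 genes with all libraries, and for 0 without KO untreated replicate 1 or 4, WT CCl4 replicate 4 or 5, or WT untreated replicate 4.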

How the results depend on the processing

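The 5 members gave 745 values under alternatives, of which 684 kept their direction and their side of the threshold. KO against WT after CCl4 for Cyp2e1 stayed negative in every alternative run. It no longer passed in edgeR with library totals alone (-2.07), no filter (-2.03), the replicate block (-1.86) or without the 2 libraries over 30% mitochondrial (-1.94), nor in limma voom (-1.97) or voom with quality weights (-1.74), and leaving out 1 library gave -2.23 to -1.88. The CCl4 effect on Cyp2e1 in KO passed in DESeq2 (-1.52) and without KO untreated replicate 2 and both mitochondrial libraries (-1.90, an alternative chosen after seeing the data), and ran from -1.94 to -1.20 without 1 library. Cyb5b for KO against WT after CCl4 ran from -0.90 to -0.23 without 1 library, and passed at -0.90.

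Some values changed sign, none of them called, and not all of these were near 0 in the main result. Among ratios, the main value was 0.96 for Cyb5a over Cyp2e1 in untreated KO against WT. It was -0.46 for Cyb5b over Cyb5a in KO against WT after CCl4. Among members, the main value was 0.40 for the difference of effects for Por and -0.37 for CCl4 in WT for Cyb5a. With library totals alone, the CCl4 effect in WT was 0.10 for Cyp2e1, 0.29 for Por, 0.015 for Cyb5a and 0.36 for Cyb5b, the effect in KO 0.21 for Cyb5b and the difference of effects -0.022 for Cyb5a. That scaling moved the median of all genes to 0.38 for CCl4 in WT, 0.20 for CCl4 in KO and 0.14 for untreated KO against WT, and the share of calls that were higher to 94.8% from 67.5%, 83.6% from 63.4% and 74.2% from 62.5%. For the difference of effects that share was 60.7% with library totals and 72.7% in the main result. Without the 2 mitochondrial libraries, Cyb5b was 0.25 for CCl4 in KO and 0.26 for the difference, and Cyb5r3 was -0.057 for untreated KO against WT. With KO untreated replicate 2 left out as well, these were 0.22, 0.23 and -0.039, and Por was -0.082 for CCl4 in KO and -0.0070 for KO against WT after CCl4. With quality weights, Cyb5b was 0.13 for CCl4 in KO, 0.027 in WT and 0.10 for the difference, and Cyb5r3 was -0.049 for CCl4 in WT. Cyb5b for CCl4 in WT was 0.0086 with no filter and 0.0023 with upper-quartile scaling. Cyb5r3 for untreated KO against WT was -0.048 with the replicate block, -0.00011 without mitochondrial genes and -0.00017 with only the 2 groups. With group medians, the CCl4 effect in WT on Cyb5a over Cyp2e1 was 0.32. Without 1 library, Por ran from -0.36 to 0.29 for CCl4 in WT, from -0.022 to 0.87 for the difference and from -0.75 to 0.13 for untreated KO against WT. Cyb5b ran from -0.42 to 0.25 for CCl4 in KO, from -0.075 to 0.037 in WT and from -0.40 to 0.27 for the difference. Cyb5r3 ran from -0.020 to 0.25 for CCl4 in WT and from -0.057 to 0.074 for untreated KO against WT. Among ratios, Cyb5a over Cyp2e1 ran from -0.22 to 0.18 for CCl4 in WT and from -0.028 to 1.37 untreated, Cyb5b over Cyb5a from -0.40 to 0.54 for CCl4 in KO, -0.88 to 0.049 for KO against WT after CCl4 and -0.32 to 0.089 untreated, and Por over Cyp2e1 from -0.0039 to 0.59 for CCl4 in WT.

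Counts of called genes moved more. For CCl4 in WT (117), they were 651 with library totals, 494 in DESeq2, 442 with quality weights, 49 with the replicate block, 187 without the 2 mitochondrial libraries, 245 without these and KO untreated replicate 2, and 63 to 179 without 1 library (fewest without WT untreated replicate 3, most without KO CCl4 replicate 3). For CCl4 in KO (2610), they were 1273 with only the 2 groups, 1389 without the 3 libraries and 1666 to 3079 without 1 library, fewest without KO CCl4 replicate 3. For untreated KO against WT (128), they were 328 in DESeq2 and 213 with quality weights. For KO against WT after CCl4 (1622), they were 1033 with quality weights, 867 with the replicate block, 555 without the 2 mitochondrial libraries, 599 without the 3 and 418 to 2216 without 1 library, with 418 without KO CCl4 replicate 3 and 1026 without WT CCl4 replicate 2. For the difference (150), they were 28 with library totals, 33 with no filter, 88 with a minimum of 1 CPM in 5 samples, 783 in DESeq2, 9 in voom, 2 with quality weights, 3 with the replicate block, 9 without the 2 mitochondrial libraries, 2 without the 3 and 0 to 867 without 1 library. The cause was not tested. Samples with the same replicate number deviated together no more than others (median r -0.0387 over 22 pairs, against 0.00186 over 85 pairs).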
